A study of Mus musculus with 16 samples.

Results

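Chemokines are small secreted proteins that lay down attractant gradients, and chemokine receptors are the membrane proteins with which leukocytes read them. The genes described here are those on the array whose symbol begins with Ccl, Cxcl, Ccr, Cxcr or Ackr followed by a digit, together with Cx3cl1, Xcl1 and Xcr1. The rule found 53 genes of 18193 that had a probe set with a single gene symbol. They were 18 CC chemokines, 13 CXC chemokines, 2 other chemokines (Cx3cl1 and Xcl1), 10 CC receptors, 5 CXC receptors, 1 XC receptor and 4 atypical receptors. Each gene was read by 1 probe set, the one with the highest mean over 16 arrays. A further 4 probe sets carried several symbols, so no gene was named from them.

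Expression arrays were made from white adipose tissue of C57BL6/J mice, 4 arrays in each of 4 groups. The wild-type animals had no Cre. The knockout animals had FABP4-Cre, a recombinase under the Fatty acid binding protein 4 promoter, for deletion of Sirt1, a NAD-dependent deacetylase, in adipocytes. Feeding with either low fat or high fat food began at an age of 4 weeks, lasted 8 weeks in each genotype and ended with dissection at 12 weeks. The groups are called wild type or knockout on low or high fat diet below. No group carried Cre without the deletion, and the Fabp4 promoter is known to be active in some macrophages and endothelial cells as well as in adipocytes, so the labels do not settle which cells lacked Sirt1. The labels do not say which fat depot was taken or whether each array held 1 animal, so p-values measure only the spread between these arrays.

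Values are log2 intensities, in which a difference of 1 is a 2-fold change. Sirt1 itself was 9.02 to 9.88 in the 4 wild-type low fat arrays, 8.94 to 9.44 in the knockout low fat arrays, 8.85 to 9.10 in the wild-type high fat arrays and 8.30 to 8.93 in the knockout high fat arrays. Its knockout difference was -0.19 ± 0.18 (SE, adjusted p = 0.498, limma) on low fat diet and -0.22 ± 0.18 (adjusted p = 0.448) on high fat diet. The labels do not place the probe set relative to the deleted part, so these values do not check the genotype. Arrays of one group correlated at 0.987 to 0.996 over all probe sets, and array medians ranged from 4.34 to 4.46. Skeletal muscle transcripts were high in 5 arrays, those with the troponin Tnnt3 at 8 or above (wild type on low fat diet 3 and 4, knockout on low fat diet 2, wild type on high fat diet 3 and knockout on high fat diet 4). The signal was graded: Tnnt3 read 7.95 on wild-type high fat array 4 and 7.37 on knockout low fat array 1, both under that cut. Fits without the 5 arrays kept only arrays 1 and 2 of the wild-type low fat group and had fewer in every other group. Whether a call lost in them was lost through fewer arrays or through muscle was not tested. Array 4 of the wild-type high fat group had epithelial markers at a mean of 8.27, against 3.00 to 4.39 in the other arrays.

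In lean fat, chemokines keep a resident population of macrophages, eosinophils and lymphocytes in place. In obesity the tissue is known for monocyte entry, for which Ccr2 and its ligands Ccl2, Ccl7 and Ccl12 are the textbook pair of receptor and attractants. Ccl3 and Ccl4 are released by activated macrophages, Cxcl1 and Cxcl2 attract neutrophils, Ccl11 and Ccl24 attract eosinophils, and Cxcl9, Cxcl10 and Cxcl11 are interferon-induced attractants of T cells that carry Cxcr3. Atypical receptors bind chemokines and clear or carry them without the usual G-protein signal.

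A gene was tested where at least 4 arrays reached a log2 value of 4, and 33 of the 53 genes did. Of the 20 that did not, 17 stayed below 4 on every array, with a highest value of 3.68, and 3 (Ccl17, Ccl28 and Cx3cl1) reached 4 on fewer than 4 arrays. The untested genes included most of the lymphocyte and granulocyte receptors: Ccr3, the eosinophil receptor, was between 1.44 and 2.94, and Cxcr2, the neutrophil receptor of Cxcl1 and Cxcl2, was between 1.46 and 2.14. Ccr4, Ccr6, Ccr8, Ccr9, Ccr10, Ccr1l1, Cxcr5 and Xcr1 were the other receptors below the filter, and Ccl1, Ccl20, Cxcl3, Cxcl5, Cxcl15, Cxcl17 and Xcl1 the other ligands. Values this low are near the array's background, and a probe set of poor response cannot be told apart from an absent transcript. Of the 33 tested, 24 were at 4 or above on all 16 arrays, and Ccl4 reached 4 in the knockout high fat group alone.

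Promoters of 5 genes are printed first, because these genes moved with diet or genotype and 4 of them lie beside each other in pairs on a chromosome. RefSeq (GRCm38.p6) gave the 250 bases before the start of 40 of the 53 genes. Capitals mark matches to a strict NF-kB consensus, to TATAAA or to GAAANNGAAA, while matches to a looser NF-kB form alone are left in lower case. Every window is written 5′ to 3′ on the gene's own strand, and the last base is the one before the transcript start. Cxcl1 (chr5:90891125-90891244, plus strand) and Cxcl2 (chr5:90903779-90903898, plus strand), adjacent genes for neutrophil attractants, share an 11-letter run that matches the NF-kB consensus on both strands.
Cxcl1: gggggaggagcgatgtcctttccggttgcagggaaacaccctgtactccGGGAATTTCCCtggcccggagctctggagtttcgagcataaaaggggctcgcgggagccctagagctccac
Cxcl2: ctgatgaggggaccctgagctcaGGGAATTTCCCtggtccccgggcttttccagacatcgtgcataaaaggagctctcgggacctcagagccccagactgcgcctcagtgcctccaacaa
The strict NF-kB consensus was found in the windows of 9 of the 40 genes (22.5%) and of 4.46% of 27018 genes, on either strand. A looser form of it, GGGNNNNNCC, which contains every strict match, was in 57.5% of the 40 and in 48.7% of all, and both windows printed above hold such a looser match outside the capitals. The strict form was added after the data were seen. A match here is a description of letters and not a shown binding site.

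Ccl12 (chr11:82101755-82101844, plus strand) and Ccl8 (chr11:82115095-82115184, plus strand) are also adjacent, and their nearest upstream bases hold a match to TATAAA, the TATA box, at almost the same distance from the start. Ccl3 (chr11:83649379-83649468, minus strand), the gene with the largest diet difference in knockout fat among the 33 that could be tested, had no match to any searched motif in its 250 bases.
Ccl12: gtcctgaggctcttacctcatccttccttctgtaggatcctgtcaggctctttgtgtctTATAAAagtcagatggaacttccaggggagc
Ccl8: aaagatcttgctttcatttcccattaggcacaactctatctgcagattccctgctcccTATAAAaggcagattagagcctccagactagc
Ccl3: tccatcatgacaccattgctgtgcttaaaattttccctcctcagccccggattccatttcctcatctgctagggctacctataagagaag
TATAAA was in the windows of 14 of the 40 genes (35%) and of 14.3% of all genes, on either strand.

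With the high fat diet, chemokine genes in wild-type fat rose far more often than they fell: 17 of the 33 tested were higher and 2 lower at an adjusted p under 0.05, with 35.6% of all 12078 tested genes past that threshold (20.5% up and 15.2% down). In knockout fat the same diet raised 10 and lowered 5, with 29.2% of all genes past it (15.6% up and 13.5% down). The 4 high fat arrays did not overlap the 4 low fat arrays for 14 of the 33 genes in wild type, against 30.8% of all genes, and for 15 in knockout, against 33.1%. The median log2 difference of the 33 was 0.77 in wild type and 0.35 in knockout, beside 0.04 and -0.02 over all tested genes. Because some genes passed the filter through the group in which they were high, all 53 were also counted with no filter. Then 23 of 53 (20 higher, 3 lower) passed the threshold in wild type, against 25.1% of all genes, and 14 of 53 in knockout, against 20.7%. Below the filter, Ccl17, Ccr6, Ccr9 and Cx3cl1 passed in wild type in that count. Cx3cl1, a membrane-bound attractant of monocytes, read 2.69 to 3.35 in wild type on low fat diet and 3.49 to 3.70 on high fat diet, and it passed in knockout too. Most of the genes called stayed called when any 1 array was left out, 16 of 19 in wild type and 9 of 15 in knockout. Ccl4, called in knockout, is not among those 9, since without any 1 knockout high fat array it fell below the filter and was not tested. Without the 5 arrays high in muscle transcripts, 16 and 12 genes passed. The shares of all genes above come from all 16 arrays and do not apply to these counts.

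**Figure D1:**
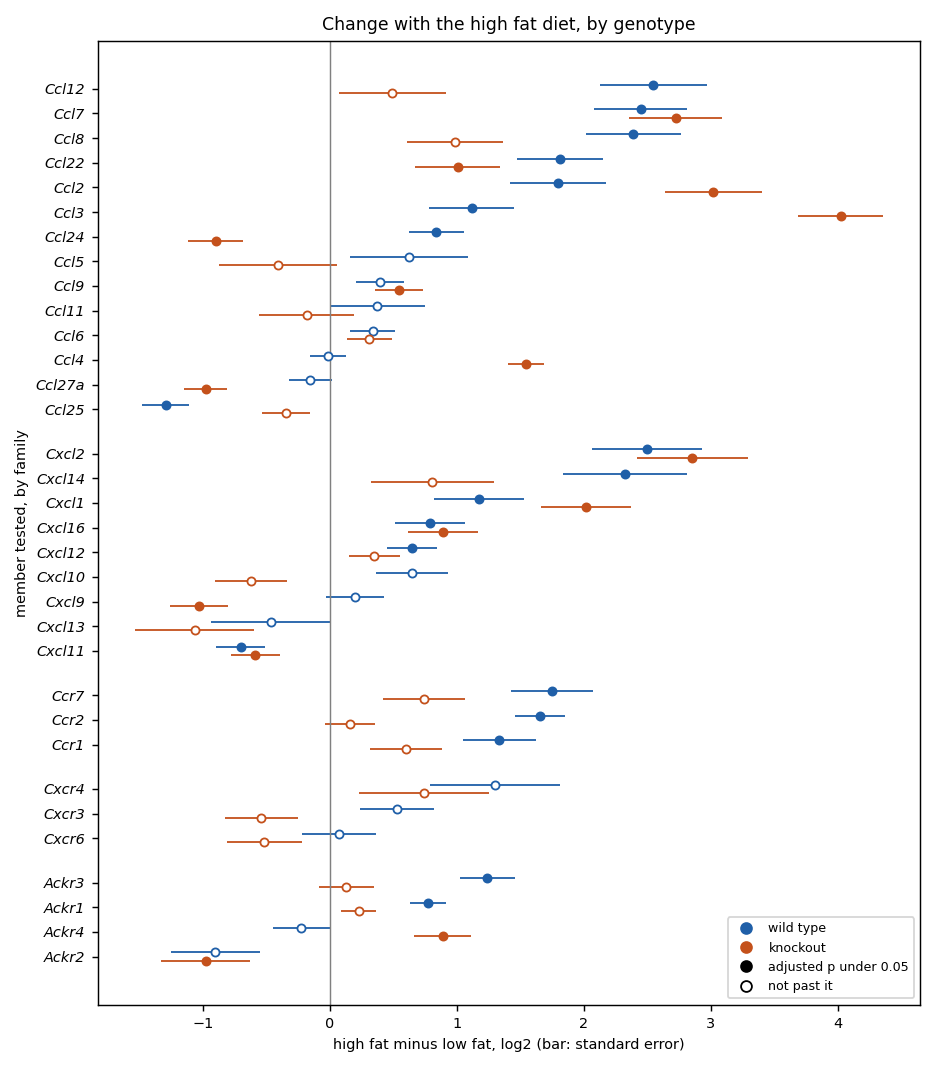
Log2 difference between high and low fat diet (x axis) for the 33 genes tested (y axis, by family), in wild type (blue) and knockout (orange), with bars of 1 standard error; filled points passed an adjusted p of 0.05. Blue filled points lie to the right for 17 genes, while Ccl3, Ccl2 and Ccl4 lie farther right in knockout and Ccl24, Ccl27a and Cxcl9 lie to the left in knockout.

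Ccl3, a macrophage attractant that signals through Ccr1 among other receptors, separated the knockout high fat group from every other array. Its values in that group were 7.30, 6.77, 7.75 and 7.09. In wild type on high fat diet they were 3.16, 5.35, 3.85 and 4.12, in knockout on low fat diet 3.50, 3.31, 3.05 and 2.96, and in wild type on low fat diet 3.16, 2.75, 2.89 and 3.21. The 2 low fat groups overlapped and lay below 4, the wild-type high fat arrays spread from the low fat level upward, and the knockout high fat arrays stood above all 12 others. In knockout fat Ccl3 rose with the diet by 4.02 ± 0.33 (SE, n = 4 against 4, adjusted p = 1.06e-06), or by 3.23 when values under 4 were set to 4. In wild type it rose by 1.12 ± 0.33 (adjusted p = 0.0161). That call was lost with values under 4 set to 4 (0.37, adjusted p = 0.276), with only the 2 groups fitted and without the arrays high in muscle transcripts (adjusted p = 0.0952). The wild-type difference was 0.71 without high fat array 2 and 1.44 without high fat array 1. On high fat diet the knockout exceeded the wild type by 3.11 ± 0.33 (adjusted p = 4.39e-05). The diet difference itself differed between genotypes by 2.90 (95% interval 1.90 to 3.91, adjusted p = 0.00123).

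Ccl4, the neighbour of Ccl3 on chromosome 11 and a related macrophage product, was also highest on the 4 knockout high fat arrays, while its other 3 groups overlapped. It read 4.34, 4.22, 4.60 and 4.45 in knockout on high fat diet. It read 3.27, 2.94, 2.68 and 2.98 in wild type on low fat diet, 2.84, 2.97, 2.84 and 3.15 in wild type on high fat diet, and 3.11, 2.86, 2.88 and 2.60 in knockout on low fat diet. The 4 knockout high fat arrays were the only ones to reach 4, so the gene entered the test through the group in which it was high. Its diet difference in knockout was 1.54 ± 0.14 (adjusted p = 2.41e-06), which fell to 0.40 with values under 4 set to 4 (adjusted p = 0.0028). Wild type showed -0.02 ± 0.14, with a 95% interval of -0.32 to 0.28. The interaction was 1.56 ± 0.20 (adjusted p = 0.000233), or 0.40 on the floored scale (adjusted p = 0.0429).

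The other 3 genes of that run on chromosome 11 did not share the pattern. Ccl9 and Ccl6, made constitutively by macrophages, read between 10.84 and 12.88 on every array. Ccl9 rose in knockout by 0.54 ± 0.19 (adjusted p = 0.0411), a call that was lost in 9 of the 16 fits that each left out 1 array (adjusted p 0.0505 to 0.0944) and without the arrays high in muscle transcripts (0.101). That call was also lost with no filter and with array centring. Ccl9's second probe set gave larger diet differences, 1.61 in wild type (adjusted p over probe sets = 0.00352) and 1.23 in knockout (0.0223). Ccl6 passed in no comparison, with diet differences of 0.34 in wild type and 0.31 in knockout. Ccl5, a T cell product, passed in none either. Its array 4 of the wild-type low fat group read 6.03, against 8.18 to 8.43 in the other 3.

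**Figure D2:**
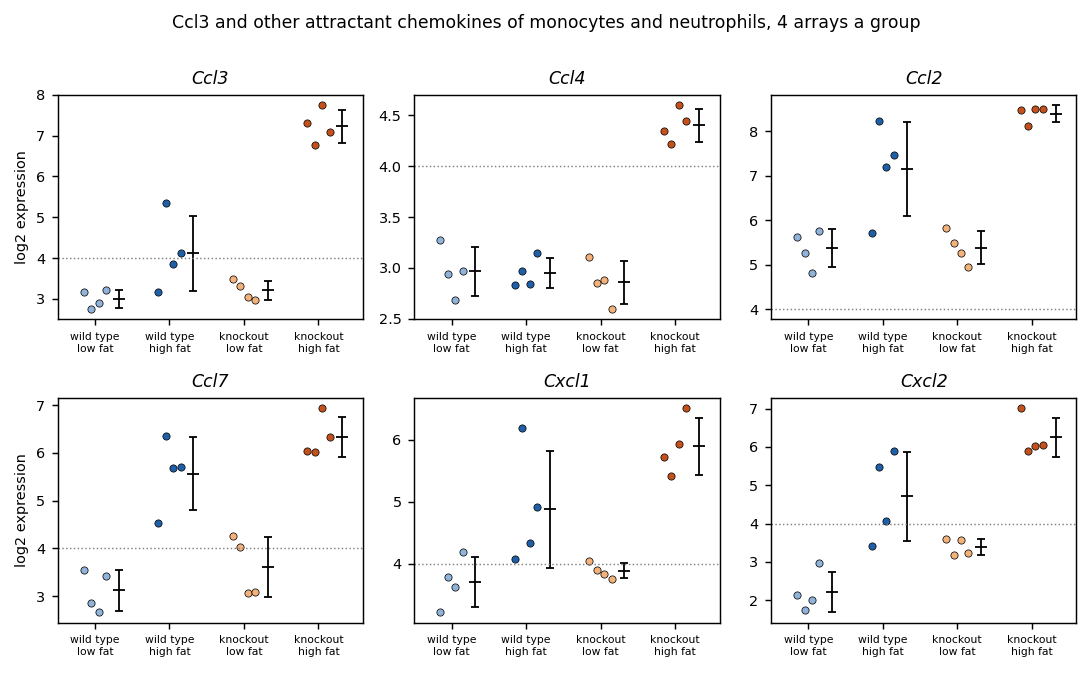
Log2 expression (y axis) of Ccl3, Ccl4, Ccl2, Ccl7, Cxcl1 and Cxcl2 on each array, by group (x axis, 4 points a group), with the mean and SD beside the points and a dotted line at the filter level of 4. In all 6 panels the knockout high fat points lie above both low fat groups. For Ccl3, Ccl4 and, barely, Cxcl2 they also lie above every wild-type high fat point.

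Ccl2, the principal monocyte attractant, rose with diet in both genotypes. It read 5.63, 5.26, 4.81 and 5.76 in wild type on low fat diet and 5.72, 8.24, 7.20 and 7.48 on high fat diet. In knockout it read 5.83, 5.49, 5.26 and 4.95 on low fat diet and 8.48, 8.12, 8.50 and 8.52 on high fat diet. The wild-type groups touched at one array, while the knockout groups were far apart. The diet difference was 1.80 ± 0.38 (adjusted p = 0.00182) in wild type and 3.02 ± 0.38 (adjusted p = 2.86e-05) in knockout. The difference of those differences, 1.23 (95% interval 0.08 to 2.37), did not pass (adjusted p = 0.143), and among the 16 fits that left out 1 array it passed only without wild-type high fat array 2 (0.0421). Ccl2 was 1.24 ± 0.38 higher in knockout than in wild type on high fat diet (adjusted p = 0.038). That call was lost without wild-type high fat array 1 or 3, or knockout high fat array 1, 3 or 4 (adjusted p 0.0762 to 0.0957), and the value was 0.76 without wild-type high fat array 1 and 1.60 without array 2.

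Ccl7, the gene next to Ccl2 and another ligand of Ccr2, also rose in both genotypes. It read 3.54, 2.85, 2.66 and 3.42 in wild type on low fat diet against 4.52, 6.35, 5.67 and 5.71 on high fat diet. The knockout arrays read 4.26, 4.03, 3.06 and 3.09 against 6.05, 6.03, 6.93 and 6.32. Neither pair of diet groups overlapped. The rise was 2.45 ± 0.36 (adjusted p = 0.000107) in wild type, or 1.56 with values under 4 set to 4, and 2.72 ± 0.36 (adjusted p = 4.71e-05) in knockout. The genotypes' diet differences were 0.28 apart, with a 95% interval of -0.82 to 1.37.

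Ccl12, the third ligand of Ccr2, and Ccl8 lie just downstream of Ccl11 on the same run and followed another course. Ccl12 read 3.28, 3.50, 3.57 and 4.67 in wild type on low fat diet and 6.44, 6.56, 6.05 and 6.18 on high fat diet. In knockout it read 5.25, 7.19, 4.40 and 5.83 on low fat diet and 6.16, 6.37, 6.16 and 5.95 on high fat diet. The knockout low fat arrays were scattered from the wild-type low fat level to above every high fat array, and the high fat groups of both genotypes overlapped. Ccl12 rose with diet in wild type by 2.55 ± 0.42 (adjusted p = 0.000282) and was 1.91 ± 0.42 higher in knockout than in wild type on low fat diet (adjusted p = 0.00552). In knockout the diet difference was 0.49 ± 0.42 (adjusted p = 0.418). The interaction of -2.06 ± 0.60 (adjusted p = 0.0342) did not pass with values under 4 set to 4 (-1.65, adjusted p = 0.0605) or in 7 of the 16 fits that left out 1 array (0.0552 to 0.0689).

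Ccl8, a monocyte and T cell attractant, read 8.66, 9.36, 9.04 and 7.94 in wild type on low fat diet and 11.51, 10.88, 10.96 and 11.21 on high fat diet. The knockout arrays read 10.59, 11.53, 9.30 and 9.91 on low fat diet and 11.18, 11.08, 11.38 and 11.63 on high fat diet. As with Ccl12, array 2 was the highest of the knockout low fat group and reached the high fat level, and it was one of the arrays high in muscle transcripts. Ccl8 rose in wild type by 2.39 ± 0.38 (adjusted p = 0.000176) and was 1.58 ± 0.38 higher in knockout on low fat diet (adjusted p = 0.00827). Without the arrays high in muscle transcripts the second value was 0.92 (adjusted p = 0.127), and Ccl8 then passed for diet in knockout (1.28, adjusted p = 0.0122). Ccl11, the eosinophil attractant between Ccl7 and Ccl12, passed in no comparison, with diet differences of 0.37 and -0.18.

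**Figure D3:**
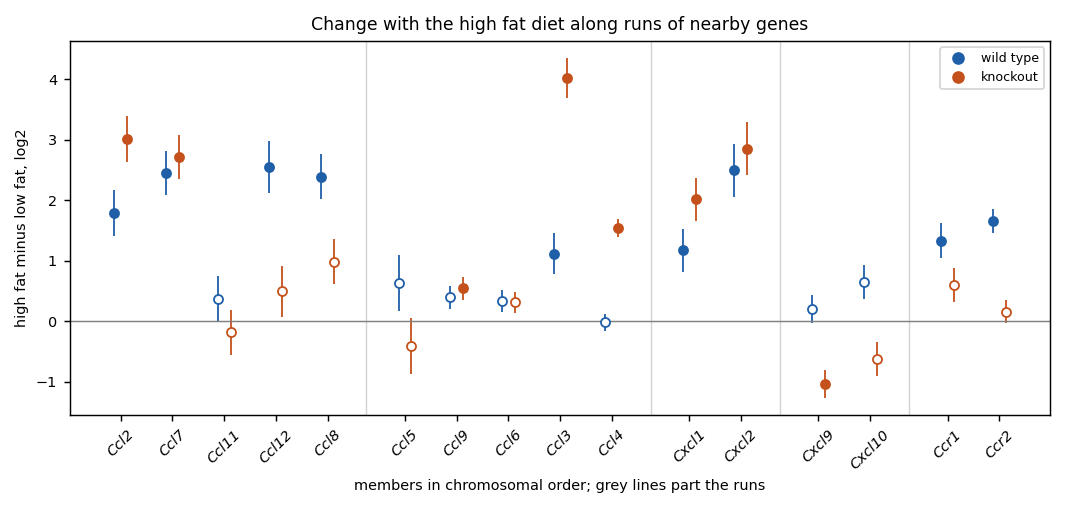
Log2 difference between high and low fat diet (y axis) with bars of 1 standard error for tested genes in chromosomal order (x axis; grey lines part 5 runs), in wild type (blue) and knockout (orange); filled points passed an adjusted p of 0.05. Within the first run Ccl12 and Ccl8 passed in wild type alone and Ccl11 in neither genotype, and within the second run Ccl3 and Ccl4 stand above Ccl5, Ccl9 and Ccl6 in knockout. Untested genes lie between some of the points, as between Ccr1 and Ccr2.

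Ccl24, the other eosinophil attractant tested, moved in opposite directions in the 2 genotypes. It read 4.64, 5.27, 5.44 and 5.70 in wild type on low fat diet and 5.79, 6.56, 6.08 and 5.98 on high fat diet. Knockout values were 6.30, 6.53, 6.29 and 6.50 on low fat diet and 5.19, 5.83, 5.27 and 5.75 on high fat diet. Neither pair of diet groups overlapped. Ccl24 rose by 0.84 ± 0.22 (adjusted p = 0.00699) in wild type and fell by 0.90 ± 0.22 (adjusted p = 0.00541) in knockout, and the interaction was -1.74 ± 0.31 (adjusted p = 0.00223). On low fat diet it was 1.14 ± 0.22 higher in knockout (adjusted p = 0.00197). The eosinophil markers Epx and Il5ra stayed below 4 on every array, and the list's mean was 2.43 to 2.70 in wild type on low fat diet and 2.84 to 3.33 in knockout on low fat diet. Of its 4 genes on the array 1 could be tested, Siglecf, a surface lectin of eosinophils. Siglecf was 2.00 higher in knockout on low fat diet (adjusted p = 0.000462), rose with diet by 1.497 in wild type (adjusted p = 0.00164) and fell by 0.96 in knockout (adjusted p = 0.0305). With values under 4 set to 4 these were 0.92 (adjusted p = 0.0266), 0.39 (adjusted p = 0.284) and -0.75 (adjusted p = 0.0456). The part of eosinophils in the Ccl24 difference was not tested.

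Ccl25, best known for its role in the thymus and small intestine, fell with diet in wild type. Its values were 6.76, 5.95, 6.25 and 5.93 in wild type on low fat diet, 5.07, 4.93, 4.88 and 4.84 in wild type on high fat diet, 5.25, 5.40, 5.39 and 5.64 in knockout on low fat diet and 5.23, 5.46, 4.98 and 4.63 in knockout on high fat diet. The wild-type low fat arrays were above the other 12. The fall was 1.29 ± 0.19 on the log2 scale (-1.29, adjusted p = 8.56e-05) with diet in wild type, and the knockout on low fat diet was lower by 0.80 (-0.80 ± 0.19, adjusted p = 0.00764). In knockout the diet difference was -0.35 ± 0.19 (adjusted p = 0.18). The interaction of 0.95 ± 0.26 (adjusted p = 0.028) lost its call in 6 of the 16 fits that left out 1 array (0.0505 to 0.0608) and without the arrays high in muscle transcripts (1.20, adjusted p = 0.0655).

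Ccl27a, a skin T cell attractant, fell with diet in knockout alone among the pairwise comparisons. It read 7.74, 7.61, 7.50 and 7.98 in knockout on low fat diet and 6.60, 6.62, 7.08 and 6.61 on high fat diet. In wild type it read 7.32, 7.49, 7.29 and 6.83 on low fat diet and 7.41, 6.87, 6.92 and 7.12 on high fat diet. The knockout diet groups did not overlap and the wild-type ones did. The difference was -0.98 ± 0.17 (adjusted p = 0.000424) in knockout and -0.15 ± 0.17 in wild type, with an interaction of -0.83 ± 0.24 (adjusted p = 0.0323; lost in 7 of 16 fits, 0.0507 to 0.0643, and without the arrays high in muscle transcripts, -0.70, 0.226). Near-identical copies of this gene exist, and 2 of the probe sets with several symbols carry its name among others, so which copy was read is uncertain.

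Ccl22, a dendritic cell product that attracts T cells with Ccr4, rose by 1.81 ± 0.34 (adjusted p = 0.000669) in wild type and by 1.01 ± 0.34 (adjusted p = 0.0343) in knockout. Its values in wild type on low fat diet lay between 2.46 and 2.81 and those in knockout on low fat diet between 3.33 and 3.81. With values under 4 set to 4, neither rise passed (0.58, adjusted p = 0.129 in wild type and 0.61, adjusted p = 0.123 in knockout). The knockout call was lost in 6 of 16 fits (0.0518 to 0.107), with array weights and without the arrays high in muscle transcripts (1.09, adjusted p = 0.108).

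Of the 9 CXC chemokines tested, 5 rose and 1 fell with diet in wild type, and 3 rose and 2 fell in knockout, where 35.6% and 29.2% of all genes passed in either direction. Cxcl2, an early neutrophil attractant, read 2.14, 1.74, 2.02 and 2.97 in wild type on low fat diet, 3.41, 5.48, 4.08 and 5.88 in wild type on high fat diet, 3.59, 3.18, 3.56 and 3.22 in knockout on low fat diet and 7.01, 5.89, 6.04 and 6.05 in knockout on high fat diet. The knockout high fat arrays were above the other 12, though barely above the highest wild-type high fat array, and both low fat groups were below 4 throughout. The rise in knockout was 2.86 ± 0.44 (adjusted p = 0.000154), or 2.25 with values under 4 set to 4. The rise in wild type was 2.50 ± 0.44 (adjusted p = 0.000408), which did not pass on the floored scale (0.86, adjusted p = 0.0644). Cxcl2 was 1.53 ± 0.44 higher in knockout than in wild type on high fat diet (adjusted p = 0.0268). That call was lost without wild-type high fat array 1 or 3 or knockout high fat array 1 (0.0841 to 0.102), and without the arrays high in muscle transcripts (1.39, adjusted p = 0.142).

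Cxcl1, whose promoter shares the NF-kB match printed for Cxcl2, rose by 1.17 ± 0.36 in wild type (adjusted p = 0.0176) and by 2.02 ± 0.36 in knockout (adjusted p = 0.000548). The wild-type call was lost with values under 4 set to 4 (0.83, adjusted p = 0.0648), with array weights (adjusted p = 0.0701), with only the 2 groups fitted (adjusted p = 0.0625) and without low fat array 1 (adjusted p = 0.0588), and the value was 0.74 without high fat array 2 and 1.44 without high fat array 1. Cxcl1's knockout difference on high fat diet was 1.02 ± 0.36 (adjusted p = 0.0656), and passed without wild-type high fat array 2 (1.46, adjusted p = 0.00215). The genotypes' diet differences were 0.84 apart (95% interval -0.23 to 1.91), and that difference passed without wild-type high fat array 2 (1.28, adjusted p = 0.032). Of the neutrophil markers, Mpo, Ngp, Camp and Mmp8 stayed below 4 on every array. The list's mean was 3.90 to 4.17 in knockout on high fat diet and 3.44 to 3.58 in wild type on high fat diet. On low fat diet it was 3.12 to 4.12 in knockout and 3.04 to 3.41 in wild type. Knockout low fat array 4, at 4.12, thus lay within the knockout high fat range. Of 9 listed genes on the array 3 could be tested. Of these 1, S100a8, was higher in knockout on high fat diet (2.39, adjusted p = 0.0014), where 8.58% of all genes were higher. The difference was positive there for 2 of the 3. With diet in wild type 1 of the 3 rose and 1 fell (20.5% and 15.2% of all genes). The part of neutrophil content in Cxcl1 and Cxcl2 was not tested.

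Cxcl9, Cxcl10 and Cxcl11 did not follow the monocyte attractants. Cxcl9 read 10.53, 10.74, 10.53 and 10.18 in wild type on low fat diet, 10.92, 10.72, 10.78 and 10.36 in wild type on high fat diet, 10.99, 10.89, 10.68 and 9.91 in knockout on low fat diet and 9.36, 10.12, 9.27 and 9.59 in knockout on high fat diet. The knockout high fat arrays did not overlap the wild-type high fat arrays and overlapped the knockout low fat arrays at one point. Cxcl9 fell with diet in knockout (-1.03 ± 0.23, adjusted p = 0.00294) and was lower in knockout than in wild type on high fat diet (-1.11 ± 0.23, adjusted p = 0.00412). The interaction was -1.24 ± 0.32 (adjusted p = 0.0207), and -0.98 (adjusted p = 0.258) without the arrays high in muscle transcripts. Its second probe set gave -1.24 for knockout on high fat diet (adjusted p over probe sets = 0.0158), -0.80 for diet in knockout (0.0667) and 0.92 for diet in wild type (0.03).

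Cxcl10 lies close to Cxcl9, and its promoter is printed because it holds both kinds of match that were searched for in inducible chemokine genes. It is on chr5:92348890-92349139, minus strand, and the first capitals are an interferon-response-like GAAANNGAAA and the next 2 runs are NF-kB matches.
Cxcl10: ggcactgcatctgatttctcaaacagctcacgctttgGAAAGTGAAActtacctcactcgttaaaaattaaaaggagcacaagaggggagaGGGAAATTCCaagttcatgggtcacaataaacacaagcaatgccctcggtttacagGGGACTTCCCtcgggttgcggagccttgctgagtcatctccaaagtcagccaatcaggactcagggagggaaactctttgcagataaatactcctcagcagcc
GAAANNGAAA was in the windows of 2 of the 40 genes (Cxcl10 and Cxcl14, 5%) and of 3.46% of all genes, on either strand.

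Cxcl10 read 6.13, 6.15, 5.33 and 5.20 in wild type on low fat diet and 6.79, 6.00, 6.61 and 5.98 on high fat diet. Knockout values were 6.58, 6.73, 5.74 and 5.80 on low fat diet and 5.15, 5.84, 5.67 and 5.70 on high fat diet. Each low fat group held 2 higher and 2 lower arrays, and both pairs of diet groups overlapped. Its diet differences were 0.64 ± 0.28 (adjusted p = 0.0893) in wild type and -0.63 ± 0.28 (adjusted p = 0.111) in knockout, so neither passed. The interaction of -1.27 ± 0.40 did (adjusted p = 0.0482). That call was lost in 10 of 16 fits that left out 1 array (0.0541 to 0.1), with array centring (0.054) and with quantile normalization (0.0521). Without the arrays high in muscle transcripts the Cxcl10 interaction was -0.61 (adjusted p = 0.498). Cxcl11 fell in both genotypes, by 0.70 in wild type (-0.70 ± 0.19, adjusted p = 0.00936) and 0.59 in knockout (-0.59 ± 0.19, adjusted p = 0.0298; lost in 6 of 16 fits, 0.0508 to 0.0948). Without the arrays high in muscle transcripts neither Cxcl11 call held (-0.65, adjusted p = 0.0935 in wild type, and -0.51, adjusted p = 0.152 in knockout). C57BL6 mice are known to make no functional protein from Cxcl11.

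Cxcl14, a constitutive attractant of epithelia and stroma, rose by 2.33 ± 0.49 in wild type (adjusted p = 0.00165). Its wild-type values were 5.45, 5.64, 5.30 and 5.91 on low fat diet and 7.65, 7.33, 6.65 and 9.98 on high fat diet. The 9.98 was the array with high epithelial markers. Leaving that array out gave 1.63 for wild type, still past the threshold, and let the diet difference in knockout pass (adjusted p = 0.0212). Cxcl14's knockout values were 6.55 to 7.26 on low fat diet and 7.10 to 8.05 on high fat diet, with a difference of 0.81 ± 0.49 (adjusted p = 0.232).

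Cxcl12, a stromal retention signal for cells with Cxcr4, rose by 0.65 ± 0.20 in wild type (adjusted p = 0.0185; 0.0617 without low fat array 3, and 0.0523 without the arrays high in muscle transcripts). Its second measurable probe set disagreed: it gave -0.33 for diet in wild type (adjusted p over probe sets = 0.379), -0.86 for diet in knockout (0.0325) and -1.05 for knockout on high fat diet (0.0225). With the mean of its probe sets the wild-type value was 0.04 (adjusted p = 0.865). The direction of Cxcl12 therefore depended on the probe set. Cxcl16, a membrane-bound ligand of Cxcr6, rose by 0.79 ± 0.27 in wild type (adjusted p = 0.0349; lost without low fat array 3 or 4 or high fat array 1 or 4, 0.0553 to 0.102, and without the arrays high in muscle transcripts, 0.0934) and by 0.89 ± 0.27 in knockout (adjusted p = 0.0234; lost without low fat array 1, 3 or 4 or high fat array 1 or 3, 0.0508 to 0.0737). The wild-type call of Cxcl16 was also lost with array centring and with array weights. The second probe set of Cxcl16 gave 0.82 and 0.80. Cxcl13, the B cell attractant, passed in no comparison. Its lowest array was 6.29 in knockout on high fat diet, a group that spread up to 8.80.

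The CC receptors that could be tested were Ccr1, Ccr2 and Ccr7. All 3 rose with diet in wild type, where 20.5% of all genes rose. By the probe sets of highest mean none passed in knockout, where 29.2% of all genes passed. Only for Ccr2 did the interaction pass. Ccr2, the receptor that brings monocytes out of the marrow and into tissue, read 8.38, 9.48, 9.23 and 9.24 in wild type on low fat diet and 10.85, 10.57, 10.79 and 10.75 on high fat diet. In knockout it read 10.11, 10.38, 10.11 and 9.79 on low fat diet and 10.34, 10.10, 10.09 and 10.51 on high fat diet. All 8 knockout arrays lay between the 2 wild-type groups. Ccr2 rose with diet by 1.65 ± 0.20 in wild type (adjusted p = 1.55e-05), and its knockout difference on low fat diet was 1.01 ± 0.20 (adjusted p = 0.00227). In knockout the diet difference was 0.16 ± 0.20, with a 95% interval of -0.26 to 0.58. The interaction was -1.49 ± 0.28 (adjusted p = 0.00311), and the 2 other measurable probe sets gave -1.65 and -1.22 (adjusted p over probe sets = 0.000528 and 0.00516). On high fat diet the difference of -0.48 did not pass (adjusted p = 0.111), while those 2 probe sets gave -0.69 (0.0121) and -0.54 (0.0465).

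Ccr1, a receptor of Ccl3, Ccl6 and Ccl9, rose by 1.33 ± 0.29 in wild type (adjusted p = 0.00198) and differed by 0.60 ± 0.29 in knockout (adjusted p = 0.131). A second probe set of Ccr1 gave 1.40 and 1.52, both past the threshold (adjusted p over probe sets = 0.0115 and 0.00901), so the apparent lack of a call in knockout depended on the probe set. Ccr7, which guides dendritic cells and T cells to lymph nodes, rose by 1.75 ± 0.32 in wild type (adjusted p = 0.000608), or 0.88 with values under 4 set to 4, and differed by 0.74 ± 0.32 in knockout (adjusted p = 0.0965). The interaction passed for neither Ccr1 nor Ccr7 (adjusted p = 0.239 and 0.153).

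Of the CXC receptors, Cxcr3, Cxcr4 and Cxcr6 were tested and none passed in any comparison. Cxcr4, the receptor of Cxcl12, had the widest spread, from 6.92 to 10.21 in wild type on low fat diet, and its diet difference there was 1.30 ± 0.51 (adjusted p = 0.0579). Without wild-type low fat array 2 or wild-type high fat array 1 that difference passed. Cxcr3, the receptor of Cxcl9 and Cxcl10 on T cells, did not overlap between genotypes on high fat diet, with 6.42 to 6.76 in wild type and 5.68 to 6.18 in knockout, but the difference of -0.71 ± 0.29 did not pass (adjusted p = 0.115). Cxcr6 on high fat diet differed by -0.77 ± 0.29 (adjusted p = 0.0895).

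All 4 atypical receptors were measured on every array. Ackr3, the scavenger of Cxcl12, read 9.78, 10.47, 9.46 and 10.37 in wild type on low fat diet, 11.48, 11.22, 11.35 and 10.98 in wild type on high fat diet, 10.74, 11.07, 10.66 and 10.12 in knockout on low fat diet and 10.77, 10.79, 10.67 and 10.86 in knockout on high fat diet. It rose by 1.24 ± 0.22 in wild type (adjusted p = 0.000413), with no overlap, and differed by 0.13 ± 0.22 in knockout. Its interaction was -1.11 ± 0.31 (adjusted p = 0.0263; lost in 6 of 16 fits, 0.05 to 0.0559, and -0.87, adjusted p = 0.177, without the arrays high in muscle transcripts).

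Ackr4, which scavenges Ccl25 among other homeostatic ligands, went the other way. It read 10.44, 10.67, 10.69 and 10.07 in knockout on low fat diet and 11.03, 11.64, 11.21 and 11.54 on high fat diet, with no overlap. In wild type it read 11.08, 11.02, 10.37 and 11.46 on low fat diet and 10.30, 11.00, 10.90 and 10.84 on high fat diet. Ackr4 rose by 0.89 ± 0.22 in knockout (adjusted p = 0.00696), against -0.23 ± 0.22 in wild type. The interaction was 1.11 ± 0.32 (adjusted p = 0.0299; lost in 6 of 16 fits, 0.0503 to 0.0588), and without the arrays high in muscle transcripts it did not pass (1.23, adjusted p = 0.0761). A second probe set gave 1.14, and the remaining one stayed below the filter. With the mean of the 3 probe sets neither call held (0.25, adjusted p = 0.32 in knockout, and 0.44, adjusted p = 0.261 for the interaction).

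Ackr1, found on venular endothelium, where it carries chemokines to the vessel lumen, read 7.13, 7.36, 7.28 and 7.55 in wild type on low fat diet, 7.81, 8.00, 7.79 and 7.75 in knockout on low fat diet, 8.13, 8.11, 7.98 and 8.19 in wild type on high fat diet and 8.06, 7.63, 8.38 and 8.18 in knockout on high fat diet. The wild-type low fat arrays were below all 12 others. Ackr1 rose by 0.77 ± 0.14 with diet in wild type (adjusted p = 0.000562) and was 0.51 ± 0.14 higher in knockout on low fat diet (adjusted p = 0.0197). The second call was lost without wild-type low fat array 1 or knockout low fat array 2 (0.0649 and 0.0664) and without the arrays high in muscle transcripts (0.54, adjusted p = 0.131). Ackr2, the lymphatic scavenger of inflammatory CC chemokines, fell in knockout (-0.98 ± 0.35, adjusted p = 0.0462), a call lost in 9 of 16 fits (0.0523 to 0.138), without the arrays high in muscle transcripts (0.161) and with the mean of its probe sets (0.0677). That call was also lost with no filter. In wild type the Ackr2 difference was -0.90 ± 0.35 (adjusted p = 0.056).

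Between genotypes, 6 of the 33 genes passed on low fat diet, where 18.9% of all genes did, and 5 passed on high fat diet, where 15.1% did (up and down, 11.7% and 7.24% of all genes on low fat diet, 8.58% and 6.47% on high fat diet). The genotypes did not overlap for 8 of the 33 on low fat diet (17.9% of all genes) and for 11 on high fat diet (26.1%). On low fat diet Ccl12, Ccl8, Ccl24, Ccr2 and Ackr1 were higher in knockout and Ccl25 was lower. On high fat diet Ccl3, Ccl4, Ccl2 and Cxcl2 were higher in knockout and Cxcl9 was lower, so none of the 33 passed on both diets. With no filter, 9 of 53 passed on low fat diet (12.4% of all genes) and 5 of 53 on high fat diet (10.1%). Below the filter, Ccl17, Ccr3 and Ccr6 passed on low fat diet in that count, and Ccr3 on high fat diet. Ccr3, between 1.44 and 2.94 on all arrays, was higher in knockout by 0.95 (adjusted p = 0.000231) and 0.79 (adjusted p = 0.0014). The median difference of the 33 was 0.36 on low fat diet and -0.12 on high fat diet, beside 0.04 and 0.00 over all genes. The shares of these genes that passed were close to the shares of all genes on both diets. Without the 5 arrays high in muscle transcripts, 5 passed on low fat diet and 2 on high fat diet, counts to which the shares above do not apply. In those fits Ccl4 was not tested, and Ccl2 lost its call (1.22, adjusted p = 0.17). The diet and genotype comparisons share groups, so Ccr2, Ccl12, Ccl8, Ccl24, Ccl25 and Ackr1, which passed for diet in wild type and for genotype on low fat diet, were each measured against the same 4 wild-type low fat arrays.

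**Figure D4:**
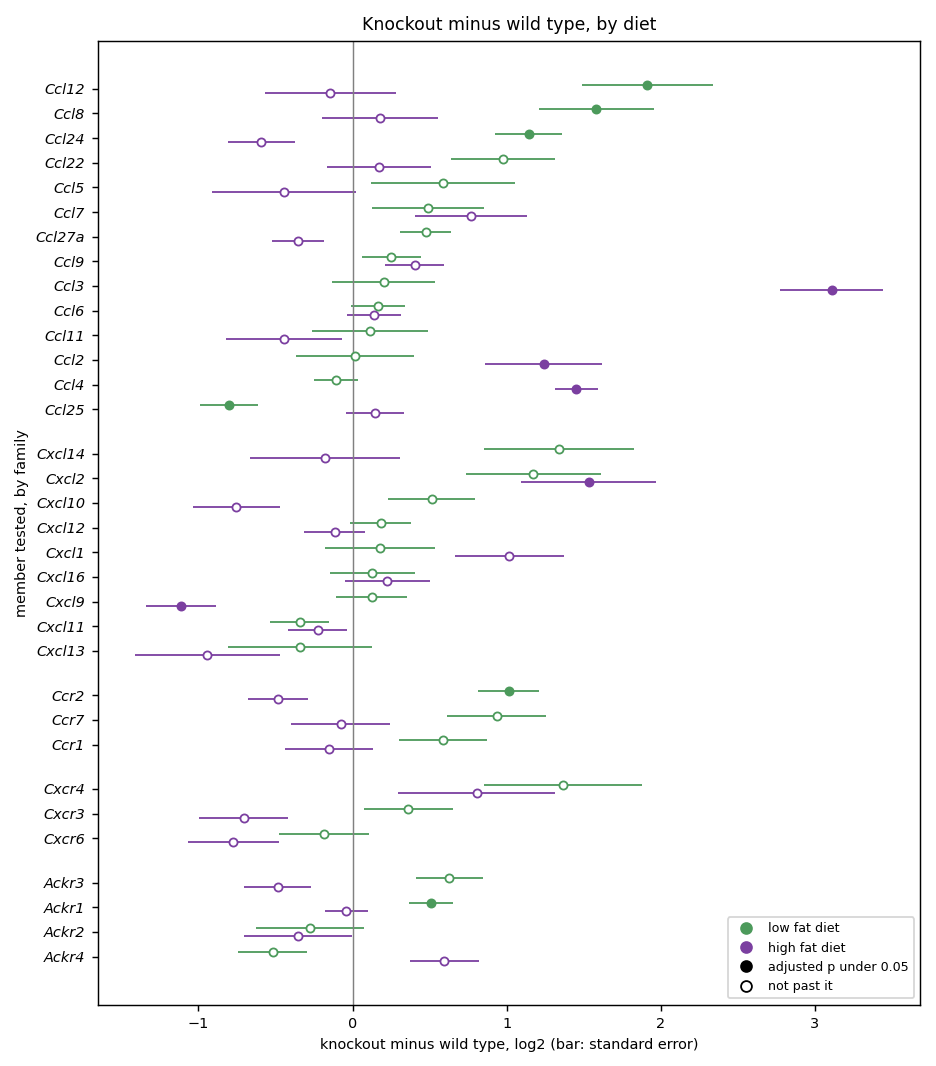
Log2 difference between knockout and wild type (x axis) for the 33 genes tested (y axis, by family), on low fat diet (green) and high fat diet (purple), with bars of 1 standard error; filled points passed an adjusted p of 0.05. Ccl12, Ccl8, Ccl24, Ccr2 and Ackr1 are filled to the right in green alone, and Ccl3, Cxcl2, Ccl4 and Ccl2 in purple alone.

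A diet difference that itself differed between genotypes was found for 11 of the 33 genes, where 13.0% of all genes had one (11 of 53 with no filter, against 8.56%). Of all genes, 5.12% had a more positive and 7.87% a more negative diet difference in knockout. In 4 of them the diet difference was more positive in knockout (Ccl3, Ccl4, Ackr4 and Ccl25), and in 7 it was more negative (Ccl12, Ccl24, Ccl27a, Cxcl9, Cxcl10, Ccr2 and Ackr3). For Ccl3, Ccl24, Ccr2 and Cxcl9 the call held without any 1 array. Ccl4 kept it in the 12 fits in which it was tested and was not tested in the 4 that left out a knockout high fat array. The other 6 lost it in 6 or more of the 16 fits. Without the arrays high in muscle transcripts 5 genes passed, a count to which the shares above do not apply, and Ccl4 was not tested. The median interaction of the 33 was -0.56, beside -0.01 over all genes.

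**Figure D5:**
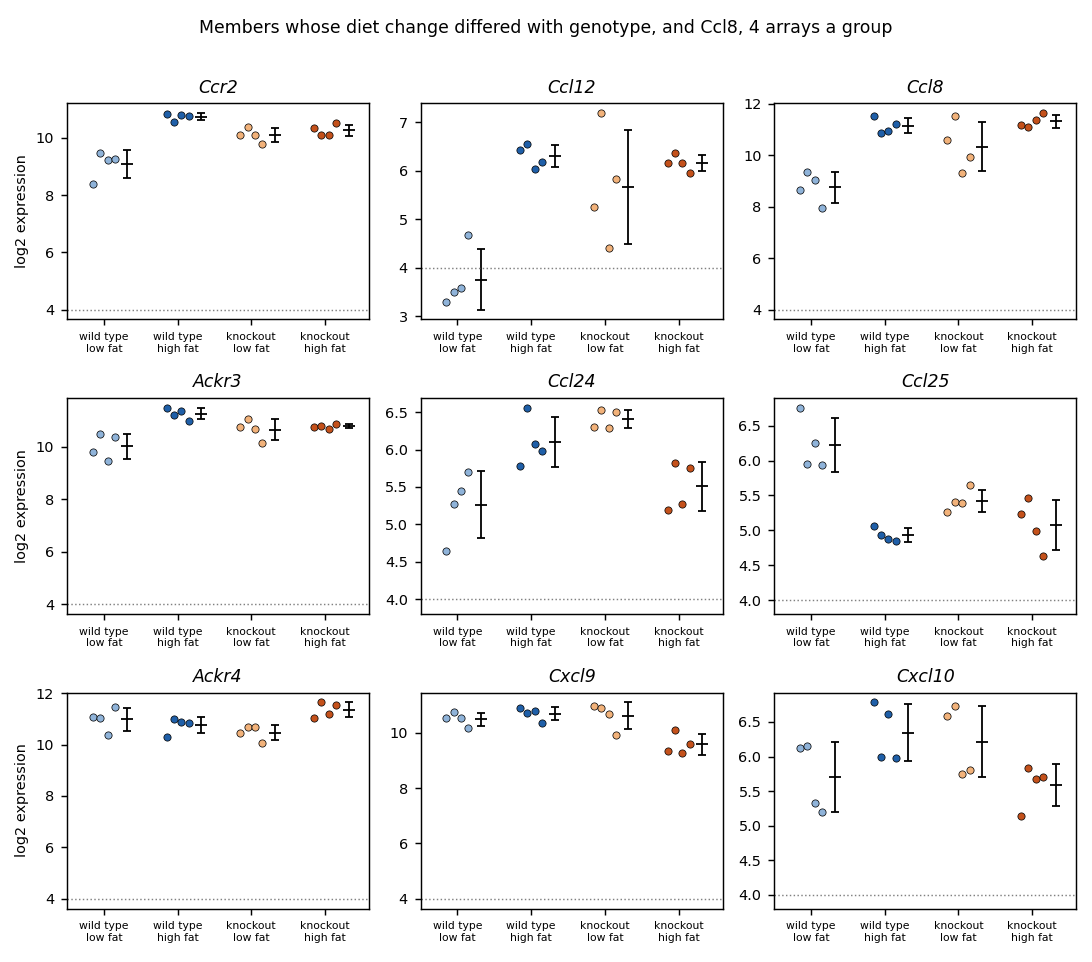
Log2 expression (y axis) on each array by group (x axis, 4 points a group) for 8 genes whose diet difference differed between genotypes and for Ccl8, with the mean and SD beside the points and a dotted line at the filter level of 4. The knockout low fat points of Ccr2 and Ackr3 lie between or across the wild-type groups, Ccl24 runs in opposite directions, and Cxcl9 is low in knockout on high fat diet alone.

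Signalling partners of these receptors were described from a list of G-protein subunits, kinases, Rac activators and regulators. The list also held the receptors Cx3cr1, Ccrl2 and Cmklr1. Of 54 tested genes on it, 27 rose and 2 fell with diet in wild type (53.7%, beside 35.6% of all genes, 20.5% up and 15.2% down), and 21 rose and 1 fell in knockout (40.7%, beside 29.2%, 15.6% up and 13.5% down). In wild type the leading genes were Tiam1 (1.93 ± 0.16, adjusted p = 7.97e-07), a Rac exchange factor, Dock2 (1.49 ± 0.19, adjusted p = 2.77e-05), the exchange factor of leukocyte migration, and Rac2 (1.69 ± 0.22, adjusted p = 3.02e-05), the leukocyte Rac. In knockout Vav1, a leukocyte exchange factor, rose by 2.03 ± 0.21 (adjusted p = 5.52e-06), and Cmklr1, the chemerin receptor, fell (-1.83 ± 0.18, adjusted p = 4.86e-06). Rgs18, a regulator that ends G-protein signals in blood cells, rose by 2.49 ± 0.26 in knockout (adjusted p = 7.65e-06).

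Between genotypes 14 genes of the signalling list were higher and 1 lower in knockout on low fat diet (27.8%, beside 18.9% of all genes), and 12 were higher and 1 lower on high fat diet (24.1%, beside 15.1%). Tiam1 was 1.45 ± 0.16 higher on low fat diet (adjusted p = 2.28e-05), and its interaction was -1.64 ± 0.23 (adjusted p = 0.0004), so it shared the order of groups seen for Ccr2. Rgs2, another regulator, was lower in knockout on low fat diet (-1.95 ± 0.32, adjusted p = 0.000679). On high fat diet Rgs18 (2.09 ± 0.26, adjusted p = 0.00014), Vav1 (1.54 ± 0.21, adjusted p = 0.00024) and Was (1.22 ± 0.20, adjusted p = 0.00114), which drives actin in leukocytes, were higher and Cmklr1 (-1.19 ± 0.18, adjusted p = 0.00065) was lower. Cx3cr1, the receptor of Cx3cl1, rose with diet in wild type by 1.05 ± 0.21 (adjusted p = 0.00119), or by 0.52 with values under 4 set to 4.

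A list of chemokine handling and related genes held matrix proteases, heparan sulfate enzymes, Pf4, Cklf, Rarres2 and others. Of its 19 tested genes, 8 rose and none fell with diet in wild type (42.1%, near the 35.6% of all genes), and 9 rose and 3 fell in knockout (63.2%, beside 29.2%). Mmp12, a macrophage elastase that trims chemokines, rose by 4.48 ± 0.59 in wild type (adjusted p = 3.90e-05) and by 2.70 ± 0.59 in knockout (adjusted p = 0.00273). It was 3.36 ± 0.59 higher in knockout on low fat diet (adjusted p = 0.00113). Mmp9, a gelatinase, fell in knockout (-1.94 ± 0.24, adjusted p = 2.19e-05), and Hs6st1, which sulfates the heparan chains that hold chemokines, rose there by 1.69 ± 0.18 (adjusted p = 7.65e-06). Between genotypes on high fat diet Mmp9 was lower (-1.22 ± 0.24, adjusted p = 0.00295) and Hs6st1 higher (0.90 ± 0.18, adjusted p = 0.00345) in knockout.

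These are whole-tissue arrays, in which more cells of a type and more RNA per cell cannot be told apart. Macrophage markers were highest in knockout on high fat diet: the mean of 11 was 9.26 to 9.78 in wild type on low fat diet, 10.02 to 10.52 in wild type on high fat diet, 9.75 to 10.10 in knockout on low fat diet and 10.73 to 10.91 in knockout on high fat diet. Of the 11, 6 rose and 1 fell with diet in wild type (63.6%, beside 35.6% of all genes) and 6 rose in knockout (54.5%, beside 29.2%). In knockout 1 was higher on low fat diet (9.09%, beside 18.9%) and 4 on high fat diet (36.4%, beside 15.1%). Dendritic cell markers, a list that holds Ccl17, had a mean of 5.83 to 6.08 in wild type on low fat diet and of 6.63 to 7.40 over the other 3 groups. The wild-type low fat group was also the lowest for Ccr2 and Ackr1. T cell markers were 4.41 to 4.83 in wild type and 3.82 to 4.46 in knockout on high fat diet, where Cxcl9 was lower, and Cd8b1 and Zap70 were below 4 on every array. On low fat diet the T cell mean was 3.76 to 4.68 in wild type and 3.93 to 4.91 in knockout. Both of these ranges overlapped that of knockout on high fat diet. Mesothelial markers fell in knockout on high fat diet, to 6.57 to 7.66 from 8.46 to 8.68 on low fat diet, with 6 of 8 past the threshold (13.5% of all genes fell), and 7 of the 8 were lower in knockout than in wild type on that diet (6.47% of all genes were). Wild type on high fat diet had a mesothelial mean of 8.02 to 10.07. Endothelial markers had 4 of 7 lower in knockout on high fat diet (6.47% of all genes were), with a mean of 7.69 to 8.34 there and 8.44 to 8.76 in wild type. On low fat diet the endothelial mean was 8.21 to 8.44 in knockout and 8.26 to 8.49 in wild type. Stromal progenitor markers were 10.45 to 10.89 in wild type on low fat diet and 10.79 to 11.46 over the other 3 groups, with 4 of 7 higher on high fat diet in wild type (20.5% of all genes) and 3 of 7 higher in knockout on low fat diet (11.7%). The part of these cell types in the chemokine differences was not tested.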

How the data were processed

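Total RNA from white adipose tissue was hybridised to 16 Affymetrix arrays. The deposited values are log2 intensities; the submitters' processing notes name GCRMA (version 2.20.0) and R (2.11.1) as the tools the authors used. Of 45037 probe sets, 34945 had 1 gene symbol, 932 several and 9160 none in the platform annotation. Each of 18193 genes was given its probe set of highest mean, and 12078 with a log2 value of at least 4 on at least 4 arrays were tested with limma 3.58.1 (R 4.3.3; 1 mean per group, empirical Bayes, two-sided, Benjamini-Hochberg over all genes tested, threshold 0.05). The scripts were tested on simulated data. Per-array values are given for Ccl3, for up to 5 genes per pairwise comparison with the smallest adjusted p among those called whose groups did not overlap, and for genes called in the interaction. The genes and lists were chosen with earlier results of these data known. The number of arrays limits the precision. Of 83 pathway symbols 75 matched, and of 135 marker symbols 124. Alternatives were other filters, scalings, variance models, probe set rules and thresholds, the replicate number as a block, and leaving out arrays.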

Additional observations from a re-analysis of the deposited data

Results flagged for a closer look

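In 6 of 132 groups of 4 arrays that were checked, 1 array stood apart from the other 3 by more than Dixon's 95% criterion, and chance gives about 1 in 20. The arrays were Ccl5 at 6.03 in wild-type low fat array 4, Cxcl12 at 11.39 in wild-type high fat array 1, and, in the knockout high fat group, Ccl2 at 8.12 in array 2, Ccl27a at 7.08 in array 3, Ccr1 at 6.36 in array 1 and Cxcl2 at 7.01 in array 1.

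The diet difference differed between genotypes (knockout minus wild type, limma interaction on the log2 scale, 4 arrays a group) by 2.90 for Ccl3, 1.56 for Ccl4, 1.11 for Ackr4 and 0.95 for Ccl25. It differed by -2.06 for Ccl12, -1.74 for Ccl24, -1.49 for Ccr2, -1.27 for Cxcl10, -1.24 for Cxcl9, -1.11 for Ackr3 and -0.83 for Ccl27a.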

How the results depend on the processing

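Read by its brightest probe set or by the mean of its probe sets, no called gene changed direction under the alternatives in which it was tested, though the second probe set of Cxcl12 alone gave the opposite sign. For diet in wild type the count of 19 stayed within 1.5 times under every setting, and was 17 to 21 when 1 array was left out. For diet in knockout it was 8 when at least a 2-fold change was also required, and 10 to 16 when 1 array was left out. For knockout on low fat diet the count of 6 became 12 with the mean of a gene's probe sets, and 5 to 10 without 1 array. For knockout on high fat diet the count of 5 became 9 with only the 2 groups compared, 13 with array weights, 8 with the mean of probe sets, 3 at a threshold of 0.01, 2 without the 5 arrays high in muscle transcripts (a setting chosen after seeing the data), and 2 to 7 without 1 array. For the interaction the count of 11 became 4 at a threshold of 0.01, 5 without the arrays high in muscle transcripts, and 6 to 13 without 1 array. The cause of these shifts was not tested, apart from thresholds and fold limits, which can only remove calls. No share of all genes is set beside the counts of these settings. Whether all genes shifted alike is therefore not shown. With the replicate number as a block the counts were 19, 15, 7, 5 and 11. The calls of Ccl2 on high fat diet (adjusted p = 0.0624), of Cxcl11 in knockout (0.0503) and of the Ccl27a interaction (0.0565) were lost with it. Deviations of same-numbered arrays from their group means correlated at -0.321 to 0.199 (24 pairs, 5 over 0.1), with both signs. The titles state no pairing, and these correlations cannot exclude one. Signals below a log2 of 4 limit what can be said of 20 untested genes and of rises from a floor, as for Ccl3, Ccl4, Ccl22, Cxcl1 and Cxcl2.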
